A study of Mus musculus with 4 samples.

Results

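The cells described here are outflow tract cardiomyocytes of the mouse embryo at E9.5 and E10.5. They were chosen from single-cell RNA-sequencing libraries by a rule on raw counts of unique molecular identifiers (UMIs, each of which stands for 1 captured mRNA molecule). A cell needed at least 1000 detected genes, at most 10% of UMIs from mitochondrial genes, and 2 or more UMIs in at least 5 of the 8 sarcomere genes Tnnt2, Myl4, Myl7, Actc1, Tnni1, Ttn, Myh6 and Myh7. Irx4, Nr2f1 and Nr2f2 had to be at 0 UMIs, and Isl1, Bmp4 and Sema3c together at 2 UMIs or more. The rule took 73 of the 4052 cells that passed the quality limits in the E9.5 library and 69 of 8042 in the E10.5 library. Together they are 142 of the 805 cells that passed the sarcomere gate in these libraries, and of 22662 cells in the 4 libraries of the series. The embryos were Mesp1Cre;Rosa26-GFPflox/+ on a Swiss Webster background. In such embryos Cre recombinase is made where Mesp1 is active, in the early mesoderm, and its descendants keep GFP, so that a sort for GFP positive, DAPI negative cells retains living cells of that lineage and leaves others, such as neural crest, unsampled. The pharyngeal apparatus and heart were dissected, embryos were pooled, and 1 library was made per stage, which held 74920880 UMIs in 4055 cells at E9.5 and 142850521 UMIs in 8070 cells at E10.5. No treatment or other genotype was compared.

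The outflow tract is the muscular tube at the arterial pole of the embryonic heart, and it is later remodelled into the bases of the aorta and the pulmonary trunk. Its myocardium is added late, from progenitors of the anterior second heart field that lie in the wall behind the pericardium and differentiate as they enter the tube. Isl1 encodes a LIM homeodomain factor of second heart field cells, Bmp4 a secreted growth factor needed in the outflow tract, and Sema3c a secreted semaphorin that acts on neural crest cells as they enter it. Irx4 is a homeobox gene of ventricular muscle, and Nr2f1 and Nr2f2 encode nuclear receptors of atrial and inflow muscle.

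The genes of the rule describe the cells and support nothing, since they chose them. The summed count of Isl1, Bmp4 and Sema3c had a median of 10 UMIs per cell at E9.5, with a range of 2 to 28, and of 14 at E10.5, with a range of 2 to 32. Bmp4 was detected in 63 of 73 and 67 of 69 cells, Sema3c in 55 and 50, and Isl1 in 49 and 58. All 3 genes were found together in 31 cells of E9.5 and 43 of E10.5, and exactly 2 of them in 32 and 20. Few cells lay near the limit of this sum: 5 and 2 cells had exactly 2 UMIs, and 17 and 3 gated cells without Irx4, Nr2f1 and Nr2f2 were left out with 1 UMI. The limit on sarcomere genes was less clear cut. At E9.5, 8 cells passed with exactly 5 genes and 12 that met the other limits missed with 4. At E10.5 the same counts were 10 and 12. Many gated cells reached the sum but were left out for a UMI of an excluded gene. At E9.5 these were 17 with Irx4 only, 189 with Nr2f1 or Nr2f2 only and 11 with both kinds. At E10.5 they were 5, 117 and 0. How many of them had a single such UMI was not tested. Tnnt2, the cardiac troponin T gene, had a median of 28 and 18 UMIs per cell. Depth differed with the rule, which asks for genes at 0 UMIs. The median was 15326 UMIs per outflow cell in the E9.5 library and 14188 in the E10.5 library, against 18313 and 16660 in the other gated cells, and the part of depth in the choice of cells was not tested beyond the thinning given next.

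Outflow cells made up 14.1% of gated cells at E9.5 (exact Clopper-Pearson 95% interval 11.2 to 17.4) and 24.0% at E10.5 (19.1 to 29.3). When every cell was thinned to 10000 UMIs before the rule was applied, and shallower cells were left out, the shares were 14.8% and 27.8%. With 1 library per stage these shares were not tested against each other. Scrublet, which scores cells by their likeness to simulated doublets, marked only 0.0247% and 1.14% of cells by its own threshold, so no cell was removed on that ground. An alternative without the highest scores at a fixed rate, which takes out 3 and 6 outflow cells, is given at the end. The libraries shared 41 cell barcodes, 1 of them in an outflow cell of E9.5 and none in an outflow cell of E10.5.

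The label was compared with markers that the rule did not use, from lists chosen with earlier results of these data known. A list of 8 outflow tract markers (Rgs5, Tdgf1, Wnt11, Rspo3, Tbx2, Tgfb2, Nrp2 and Hand2) had 2 or more UMIs in 70 of 73 outflow cells at E9.5 (95.9%, 88.5 to 99.1) and in 69 of 69 at E10.5 (100%, 94.8 to 100). A list of 6 sinus and inflow markers, Shox2, Tbx18 and Vsnl1 among them, had them in 5 of 73 (6.85%, 2.26 to 15.3) and 4 of 69 (5.80%, 1.60 to 14.2). Endothelial cells of the same libraries, which served as a background, had the outflow list in 59.6% and 77.9% of cells and the inflow list in 2.55% and 6.71%, at median depths of 17416 and 18462 UMIs. After thinning, the outflow list was found in 91.8% and 95.2% of outflow cells against 44.1% and 57.7% of endothelial cells. The inflow list was then found in 8.20% and 9.68% of outflow cells against 0.990% and 2.43% of endothelial cells. Without thinning, the share with the inflow list at E10.5 was thus not above that in endothelial cells. The other gated cells had the outflow list in 72.7% and 80.4% of cells and the inflow list in 66.9% and 74.9%. The outflow list was thus common among the other gated cells too. Gated cells with Nr2f1 or Nr2f2 but no Irx4, which the rule excludes, had the inflow list in 91.0% and 84.2% of cells. The low share of that list in outflow cells is thus not independent of the rule. Of the outflow markers, Nrp2 and Hand2 were also present in endothelial cells, with a UMI of Nrp2 in 40.4% and 51.3% of them.

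The outflow cells were first compared with all 663 other gated cells, to ask in which genes beyond the rule they differ from the rest of the cardiomyocytes. UMIs were summed per library and group, which gave 1154398 and 1089228 UMIs for outflow cells and 8883483 and 4074793 for the others. The sums were tested with the edgeR quasi-likelihood test with the library as a block. Levels are given as CPM, the UMIs of a gene per 1000000 UMIs of the sum, with outflow cells first and others second, at E9.5 and then at E10.5. Fold changes are on the log2 scale with a standard error worked back from the edgeR F statistic. A gene was called at a Benjamini-Hochberg adjusted p under 0.05 with the same sign in both libraries. Of 10250 genes tested, 305 were called higher (2.98% of genes tested) and 147 lower (1.43%) in outflow cells, or 4.41% in either direction. The only spread these p-values measure is that between 2 libraries of different stages, with 1 residual degree of freedom per gene. To this edgeR adds 9.02 degrees of freedom from the same spread over all genes. Without the library term edgeR called 0 genes, with 727 at an unadjusted p under 0.05, and DESeq2 with the block called 96 higher and 42 lower. The other gated cells are a mixture defined by the genes the rule excludes, so a lower value in outflow cells is a contrast with Irx4 and Nr2f cells together. Fewer cells that express a gene and less mRNA in each cannot be told apart in these sums, and for that reason shares of cells are given where they matter.

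Outflow tract markers were higher in outflow cells. Of the 8 genes, 6 were called higher and 0 lower, with a median log2 fold change of 1.85 against -0.00 over all genes tested. Tdgf1, the co-receptor for Nodal also called Cripto (chromosome 9, 110939608 to 110946158, GRCm38), was at 154 v 7.09 CPM at E9.5 and 10.1 v 0.736 CPM at E10.5, a difference of 4.39 ± 0.25 on the log2 scale (SE, n = 2 libraries, edgeR adjusted p = 3.54e-05). Its transcripts came from 27 of 73 outflow cells at E9.5 and only 3 of 69 at E10.5, while 20 of 444 and 2 of 219 other gated cells had any. Nrp2, a receptor for class 3 semaphorins such as Sema3c (chromosome 1, 62703317 to 62818692), was at 254 v 17.8 CPM and 483 v 69.9 CPM, or 3.27 ± 0.22 on the log2 scale (edgeR adjusted p = 5.38e-05), and was detected in 56 of 73 and 64 of 69 outflow cells. Both libraries showed the same direction, and the outflow level was above the other cells by several fold in each.

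Rgs5, a regulator of G-protein signalling known from vascular mural cells, was at 108 v 16.5 CPM and 184 v 36.8 CPM (2.51 ± 0.16, adjusted p = 5.1e-05). Rspo3, a secreted enhancer of Wnt signalling, was at 110.0 v 31.1 CPM and 185 v 33.9 CPM (2.14 ± 0.17). Wnt11, a ligand of non-canonical Wnt signalling with a known role in the outflow tract, was at 27.7 v 7.09 CPM and 26.6 v 12.0 CPM (1.57 ± 0.30, adjusted p = 0.0146). Hand2, a bHLH factor of the right ventricle and outflow tract, was at 120 v 50.2 CPM and 228 v 71.7 CPM (1.47 ± 0.14). The other two markers did not pass the test. Tbx2, a T-box repressor of the outflow tract and atrioventricular canal, was at 9.53 v 4.39 CPM and 5.51 v 13.7 CPM, on opposite sides in the libraries, and Tgfb2 was at 111 v 127 CPM and 135 v 116 CPM. The plot of levels by class shows these genes beside the markers of other chambers. Outside the list, Fry, Psd, 8430408G22Rik, Fam159a, Fndc5 and the homeobox gene Tlx1 were among the 10 called genes with the largest fold changes. Fry was at 50.2 v 4.28 CPM and 104 v 16.7 CPM (3.02 ± 0.25), and Tlx1 at 32.9 v 3.94 CPM and 17.4 v 4.42 CPM.

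**Figure D1:**
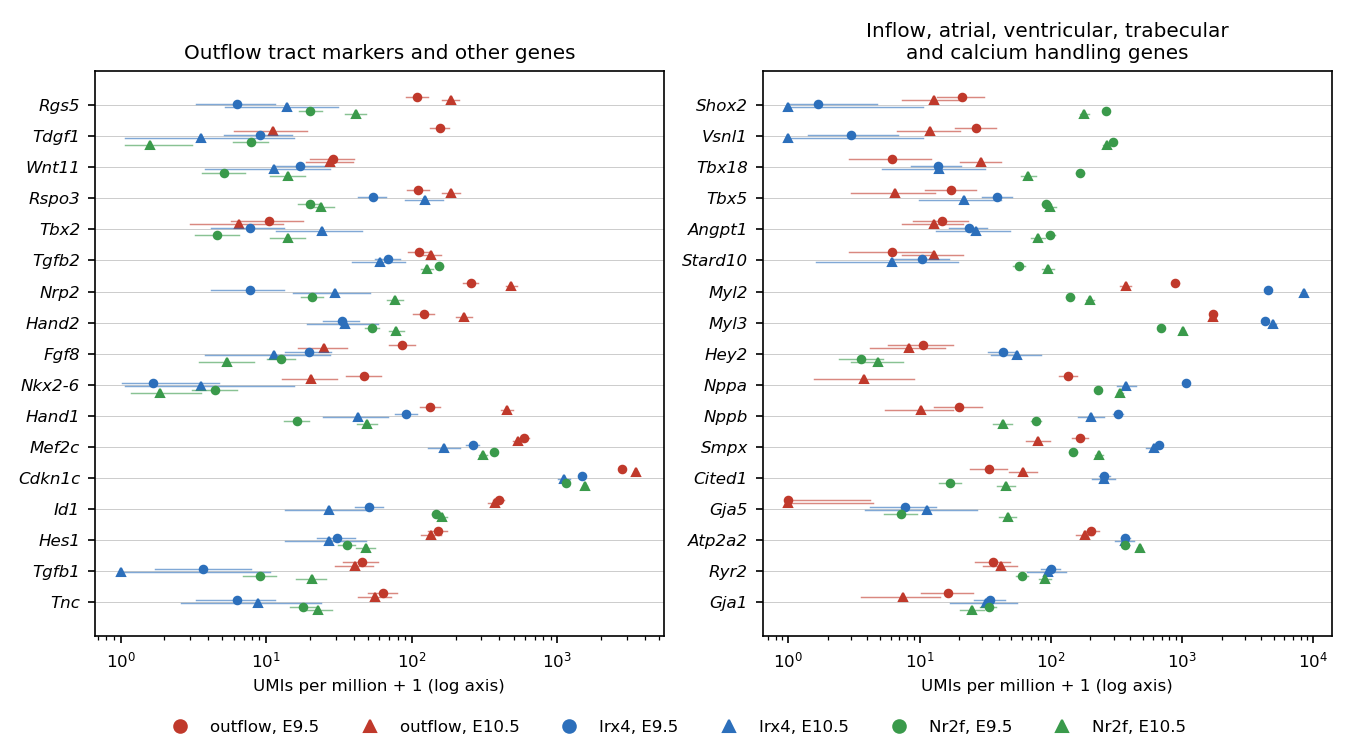
Level of each gene (CPM plus 1, log axis) in outflow cells (red), Irx4 cells (blue) and Nr2f cells (green) of the E9.5 (circles) and E10.5 (triangles) libraries, with exact Poisson 95% intervals, which cover counting error only. On the left, the red points of Nrp2, Rgs5 and Hand1 lie above the blue and green points of both libraries, whereas those of Tbx2 and Tgfb2 do not; on the right, Shox2 and Vsnl1 are at 11.02 to 26.0 CPM in outflow cells and at 179 CPM or more in Nr2f cells.

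Genes of the second heart field were higher or not called. Of 10 tested, 4 were called higher and 0 lower, with a median of 0.69. Nkx2-6, a homeobox gene of the pharyngeal region and outflow tract, was at 45.9 v 3.04 CPM and 19.3 v 0.982 CPM (3.99 ± 0.33, adjusted p = 0.000156), and 24 of 73 and 15 of 69 outflow cells had a UMI of it. Fgf8, a growth factor made by second heart field cells, was at 84.9 v 14.1 CPM and 23.9 v 5.40 CPM (2.47 ± 0.23). Mpped2 had a fold change of 1.14 and Mef2c, a MADS-box factor of heart muscle with an enhancer active in the anterior second heart field, of 0.88, at 591 v 328 CPM and 537 v 286 CPM. Fgf10, Tcf21, Foxf1 and Wnt5a were not called. Tcf21 was at 40.7 v 42.2 CPM and 45.0 v 66.8 CPM, and Fgf10 at 21.7 v 7.77 CPM and 5.51 v 2.95 CPM (1.34 ± 0.36, adjusted p = 0.0785).

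Among cardiac transcription factors, 6 of 17 were called higher and 2 lower. Hand1 stood out, a bHLH factor otherwise known from the left ventricle and the outer curvature of the heart. It was at 133 v 37.0 CPM and 451 v 45.9 CPM (2.60 ± 0.27, adjusted p = 0.000502), and it was detected in 38 of 73 outflow cells at E9.5 and in 56 of 69 at E10.5, against 109 of 444 and 32 of 219 other cells. Smyd1, a muscle methyltransferase (1.20), Gata5 (1.10) and Myocd, the coactivator of serum response factor (0.76), were also called higher, with Hand2 and Mef2c. Tbx5, a T-box factor of the atria and the left ventricle, was called lower at 16.5 v 74.0 CPM and 5.51 v 84.7 CPM (-2.82 ± 0.31), and Gata4 at 28.6 v 74.5 CPM and 39.5 v 75.1 CPM (-1.14 ± 0.18). The zinc-finger genes of the GATA family therefore did not share 1 direction, and Gata6 was not called, at 117 v 143 CPM and 269 v 187 CPM. Nkx2-5, the general cardiac homeobox gene, was at 431 v 241 CPM and 288 v 323 CPM and was not called.

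Several secreted signals and their targets differed. In the BMP pathway, 4 of 18 genes were called higher and 1 lower. The 4 were Id1, Smad6, Msx1 and Msx2, all known as targets of BMP signalling, and Id1 was at 393 v 124 CPM and 370 v 145 CPM (1.52 ± 0.13, adjusted p = 0.000156). Smad6, an inhibitor in the pathway, had a fold change of 1.14, Msx1 of 1.27 and Msx2 of 1.12, whereas the ligand Bmp5 was lower (-1.88). The other 13 genes tested, the receptor genes Bmpr1a and Bmpr2 among them, were not called, and the median of the list was 0.22. Id2, Id3, Id4, Smad7 and Bambi, also of this list, were not called either. In the Notch list, 2 of 8 genes were called higher and 0 lower. They were the ligand Jag1 (1.00) and the repressor Hes1, at 150 v 33.1 CPM and 135 v 45.2 CPM (1.90 ± 0.17). The median of the Notch list was -0.10, and 4 of its 8 genes had a positive fold change. In the FGF list, 3 of 12 genes were called higher and 0 lower, namely Fgf8, the receptor Fgfr3 (2.52) and the target gene Etv4 (1.60). The Wnt list was mixed, with Rspo3, Wnt11 and the receptor Fzd1 (1.31) higher and Wnt2 (-2.63), Sfrp1 (-1.62) and Sfrp5 (-3.03) lower among 18 genes. Tgfb1 was the 1 gene of 8 called among TGF-beta ligands and receptors, at 44.2 v 6.30 CPM and 39.5 v 16.7 CPM (2.02 ± 0.34). Nrp2 was the 1 gene of 10 called in the semaphorin, plexin and neuropilin list, and Nrp1 was at 89.2 v 166 CPM and 159 v 119 CPM.

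Matrix genes were higher where they were called. Of 24 extracellular matrix genes, 7 were called higher and 0 lower, with a median of 0.52. Eln, the elastin gene, had 6 and 61 UMIs in outflow cells against 2 and 24 in the other cells, at 56.0 v 5.89 CPM at E10.5 (adjusted p = 0.000901). Tnc, which encodes the glycoprotein tenascin C, was at 62.4 v 13.96 CPM and 55.1 v 20.6 CPM (1.81 ± 0.23), and Col1a1 (1.03), Emilin1 (1.01), Hapln1 (0.94), Col2a1 (0.84) and Fn1 (0.76) followed. Among adhesion genes, the keratins Krt18 (1.41) and Krt8 (0.97) and plakoglobin, Jup (0.85), were called higher, and Ncam1 (-1.26) and Itga6 (-1.07) lower, of 17 tested. Of 9 smooth muscle genes, Acta2 (0.62) and Flna (0.63) were called higher. Acta2 was at 4526 v 3139 CPM and 4550 v 2776 CPM, and Tagln at 586 v 507 CPM and 1349 v 505 CPM was not called.

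Most S phase and G2/M genes were slightly lower in outflow cells, with few calls. None of 21 S phase genes was called by edgeR, with Clspn nearest at an adjusted p of 0.0736, and of 22 G2/M genes only Smc4 was (-0.59). Medians were -0.20 and -0.28, and 2 of 21 and 1 of 22 genes had a positive fold change, against 5082 of all 10250 genes tested. Cdkn1c, the imprinted gene of the cyclin-dependent kinase inhibitor p57, was called higher, at 2796 v 1320 CPM and 3468 v 1528 CPM (1.14 ± 0.11, adjusted p = 0.00035), and was detected in 73 of 73 and 69 of 69 outflow cells.

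The genes lower in outflow cells included the markers of other chambers. Of 5 atrial markers 4 were called lower (median -2.68), of 6 sinus and inflow markers 4 (median -2.87), and of 6 trabecular markers 4 (median -1.98), with 0 called higher in each list. Shox2, a homeobox gene of the sinus node and sinus horns, was at 19.9 v 176 CPM and 11.9 v 151 CPM (-3.35 ± 0.19, adjusted p = 3.54e-05). Vsnl1, a calcium sensor gene of inflow muscle, was at 26.0 v 203 CPM and 11.02 v 223 CPM (-3.51 ± 0.25). What remained of both genes came from few outflow cells. The 3 cells with most Shox2 held 21 of 23 UMIs at E9.5 and 13 of 13 at E10.5, and those with most Vsnl1 held 28 of 30 and 12 of 12.

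Gja5, which encodes the gap junction protein connexin 40 of atrial and trabecular muscle (chromosome 3, 97032402 to 97053634), had 0 UMIs in outflow cells of both libraries and 48 and 163 UMIs in the other cells. With a floor of 3 UMIs per library it was at least 2.08-fold lower at E9.5 and at least 14.5-fold lower at E10.5. The natriuretic peptide genes Nppa and Nppb of the chamber myocardium were called lower as well. Nppb was at 19.1 v 134 CPM and 9.18 v 60.4 CPM (-2.77 ± 0.20), and Nppa at 135 v 428 CPM and 2.75 v 336 CPM (-2.72 ± 0.54, adjusted p = 0.018). The Nppa level of outflow cells at E9.5 rested on 3 cells, which held 124 of 156 UMIs. Beside Gja5 and Vsnl1, Pvalb, Calca (-4.43), Tmem163 (-4.34), Adm (-3.60), Cav1 (-3.55) and Smoc2 (-3.43) were among the 10 lowest genes, each with 13 or fewer UMIs per library in outflow cells.

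The contractile apparatus differed in part. Of 21 sarcomere genes that the rule did not use, 2 were called higher and 5 lower. Des, the desmin gene (0.55), and Unc45b, a myosin chaperone (0.58), were higher, and Tnni3 (-1.75), Csrp3 (-1.41), Smpx (-1.24) and Myl2 (-1.22) were among those lower. Tnni3, the mature troponin I isoform, was at 223 v 591 CPM and 191 v 827 CPM. Tpm1, Tnnc1 and Actn2 were not called, with fold changes of -0.05, -0.08 and 0.22. Of 13 genes for calcium handling and conduction, 5 were called lower, among them the calcium pump Atp2a2 (203 v 365 CPM and 179.9 v 457 CPM, -1.09), the release channel Ryr2 (-1.06) and the connexin Gja1 (-1.40). Pln, the pump inhibitor phospholamban, and the connexin Gjc1 were higher (0.97 and 0.86). The plot of the ratios by library shows how these genes fall in each library.

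**Figure D2:**
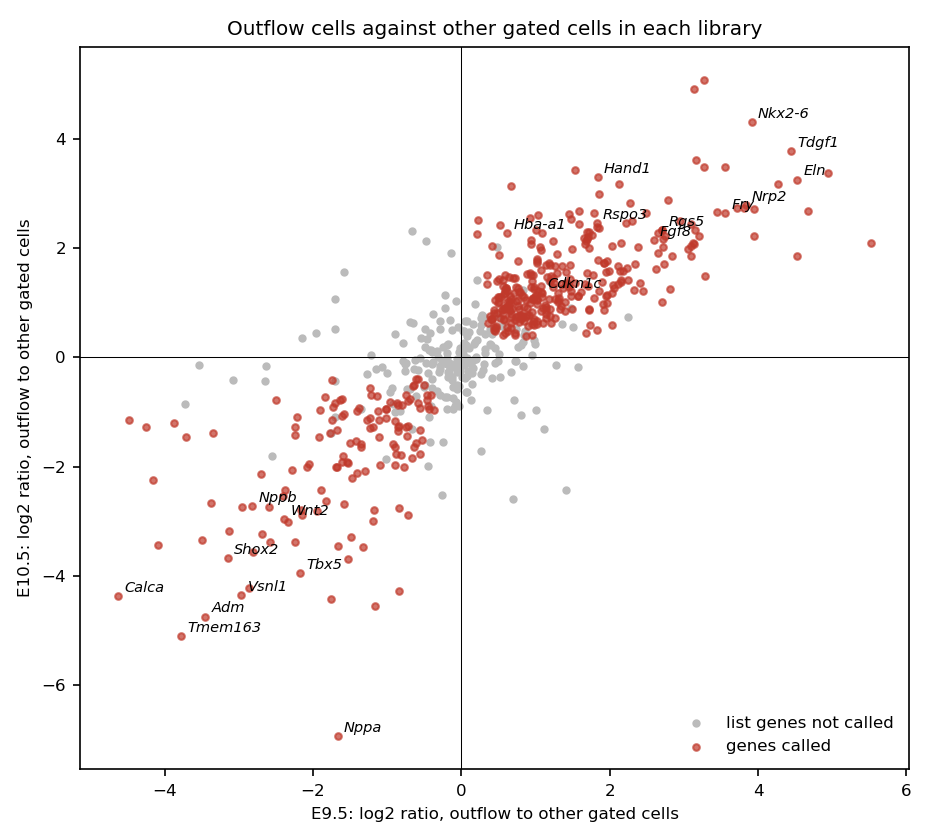
Log2 ratio of outflow to other gated cells in the E9.5 library (horizontal) and the E10.5 library (vertical), with called genes in red and genes of the lists that were not called in grey. Called genes have the same sign in both libraries, as the call requires, and Nppa lies far lower at E10.5 than at E9.5.

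Genes of other cell types were looked up in the same sums. Summed over the 8 blood markers, outflow cells were at 9.53 CPM and the others at 8.67 CPM at E9.5, but at 35982 and 8109 CPM at E10.5. In that library 3 outflow cells had 33.3 to 37.5% of their UMIs from globin genes, while no other outflow cell was above 0.804%, and all 3 had high Scrublet scores. Hba-a1, Hba-x and Hbb-bh1 were called higher in outflow cells with fold changes of 2.23, 2.12 and 2.01. Without cells over 1% globin, an alternative added after the data had been seen, Hba-x was at -0.01, Hbb-bh1 at -0.04, and Hba-a1 was at 0.07 and not called. With those cells left out, 346 genes were called higher and 184 lower. Of the 6 epicardial markers, 0 were called higher and 1, Tbx18, lower. Their summed level was 58.0 v 189 CPM and 212 v 249 CPM, and 7 outflow cells and 25 others at E10.5 had 3 or more UMIs of the mesothelial genes Upk3b, Upk1b and Wt1. Mesenchyme markers summed to 97.0 v 109.9 CPM and 205 v 152 CPM, with Col1a1 called higher and Pdgfra lower of 6, and endothelial markers to 43.3 v 38.3 CPM and 106 v 78.0 CPM, with 0 of 5 called. Neural crest markers summed to 4.33 v 6.75 CPM and 15.6 v 25.8 CPM. Sox10, Foxd3 and Dlx2 were at 0 UMIs in outflow cells of both libraries, and Ets1, which endothelial cells also express, had 5 and 17 UMIs. Macrophage and epithelial markers summed to at most 5.51 CPM in outflow cells. Of branchiomeric muscle markers 2 were tested and 0 called. The part of the mesenchymal and mesothelial transcripts in the matrix results was not tested.

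The other gated cells were then split by the genes that the rule excludes. Irx4 cells (78 and 21 cells) had Irx4 but neither Nr2f gene, and Nr2f cells (289 and 184) had Nr2f1 or Nr2f2 but no Irx4. Cells with both (29 and 3) or with neither (48 and 11) were left out, since they numbered under 20 at E10.5. The classes were fitted together over 9023 genes with 2 residual degrees of freedom, to which edgeR added 8.56 from all genes. Both contrasts use the same outflow sums, so they are not independent of each other. Levels are again given with outflow cells first.

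Against Irx4 cells, 398 genes were called higher (4.41% of genes tested) and 398 lower (4.41%) in outflow cells, or 8.82% in either direction. With library totals in place of TMM factors, the median of all genes moved from 0.02 to 0.15 and the split was 542 higher and 276 lower. Without the library term edgeR called 44 higher and 16 lower. Ventricular and trabecular markers were lower, with 3 of 5 and 5 of 6 called lower, while 1 trabecular marker was called higher. Myl2, the ventricular myosin light chain gene, was at 883 v 4544 CPM and 370.0 v 8478 CPM (-3.46 ± 0.40, adjusted p = 0.000728), and Hey2, a repressor of the compact ventricular wall, at 9.53 v 42.1 CPM and 7.35 v 54.4 CPM (-2.60 ± 0.36). Of 21 other sarcomere genes 17 were called lower and 0 higher (median -0.95). Of 14 mitochondrial and energy genes 7 were called lower as well, Cox6a2 (-2.58) among them. Inflow and atrial markers were not lower as a set in this contrast. Of 5 sinus and inflow markers 2 were called higher and 0 lower (median 0.46). Of 5 atrial markers 1 was called higher and 1 lower (median -0.32).

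Higher in outflow than in Irx4 cells were second heart field genes, with 6 of 10 called (median 2.85), and matrix genes, with 11 of 23 called and 0 lower (median 1.37). Tcf21, a bHLH factor of pharyngeal mesoderm and the epicardium, had 47 and 49 UMIs in outflow cells and 0 in Irx4 cells. That is at least 20.3-fold higher at E9.5 and at least 5.79-fold at E10.5, where the Irx4 sum is small. Cthrc1, a secreted protein of matrix-forming cells, had 177 UMIs in outflow cells and 0 in Irx4 cells at E10.5, at least 20.9-fold higher. Foxp2, Hsd11b2 and the apelin receptor ligand gene Apela also led the list, with at most 3 UMIs per library in Irx4 cells. Markers of other cell types were also higher in this contrast. Of mesenchyme markers 3 of 6 were called (median 2.46), of epicardial markers 2 of 6 (Tcf21 and Upk3b) and of blood markers 3 of 7. Ets1 of the neural crest markers and 1 of 2 endothelial markers were called too. Of branchiomeric muscle markers 2 of 2 tested were called higher (median 5.65), and Tcf21, also on the epicardial list, was 1 of them. Upk3b was at 6.93 v 0 CPM and 99.2 v 7.77 CPM. Without cells that had mesothelial transcripts, 6 of 10 second heart field genes and 9 of 21 matrix genes were called higher, and the part of the other markers was not tested. The rest of the 10 highest were Nkx2-6, Plcxd3, Fam159a, Barx1 and Arg1. Nrp2 (4.55), Rgs5 (3.99), Id1 (3.03) and Id3 (2.39) were called higher too, and Tgfb1 had 51 and 43 UMIs against 4 and 0 in Irx4 cells. The 10 lowest genes included Nppb (-4.34), Myoz2 (-3.80), Nppa (-3.59) and Cck. Rspo3 was not called, at 110.0 v 52.8 CPM and 185 v 122 CPM, and neither was Hand1, at 133 v 91.0 CPM and 451 v 41.5 CPM.

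Against Nr2f cells, 262 genes were called higher (2.9% of genes tested) and 139 lower (1.54%), or 4.44% in either direction. Without the library term edgeR called 0 higher, with 6 lower and 646 at an unadjusted p under 0.05 in either direction, and DESeq2 called 128 higher and 63 lower. Outflow markers were higher, with 6 of 8 called (median 2.08), and ventricular markers too, with 3 of 5 (median 1.45). Myl2 was at 883 v 138 CPM and 370.0 v 198 CPM (1.95 ± 0.39, adjusted p = 0.0155), so that the outflow level lay between those of the Irx4 and Nr2f cells. At E9.5 it was detected in 38 of 73 outflow cells, 78 of 78 Irx4 cells and 67 of 289 Nr2f cells. Pln showed the same order, at 126 v 16.9 CPM and 381 v 60.6 CPM against Nr2f cells (2.77 ± 0.18) and -1.08 against Irx4 cells. Hand1 (3.20), Rspo3 (2.78) and Lmo2 (2.79) were among the highest genes. Second heart field genes were called higher in 5 of 10 (median 0.75) and matrix genes in 4 of 23 (median 0.46), with 0 lower in each. Both medians were smaller than against Irx4 cells, where they were 2.85 and 1.37. Among 6 mesenchyme markers 0 were called higher and 1 lower (median -0.21).

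Lower than in Nr2f cells were 4 of 5 atrial markers (median -3.04) and 4 of 5 sinus and inflow markers (median -3.77). Shox2 was at 19.9 v 262 CPM and 11.9 v 179 CPM (-3.77 ± 0.19, adjusted p = 8.61e-06). Angpt1, an angiopoietin gene of atrial muscle (-2.75), Tbx5 (-3.07), Wnt2 (-2.98) and Sfrp5 (-3.46) moved the same way. Among 21 other sarcomere genes 7 were called higher and 2 lower. The 2 lower ones were Tnni3 (-1.42 against Nr2f cells, -2.65 against Irx4 cells) and Csrp3 (-1.18 and -2.03). Des had fold changes of 1.08 against Nr2f cells and -0.65 against Irx4 cells, Actn2 of 0.92 and -1.14, and Myl3 of 1.05 and -1.54, all of them called. Atp2a2 had fold changes of -1.11 and -1.07, and Ryr2 of -0.92 and -1.54. Isl1, Bmp4 and Sema3c, although part of the rule, were not absent from Nr2f cells, of which 189 of 289 and 117 of 184 reached a sum of 2 UMIs, against 17 of 78 and 5 of 21 Irx4 cells.

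The outflow cells were split by Isl1, a gene of the rule, to see whether other genes varied with it. With 49 and 58 cells that had a UMI and 24 and 11 that had none, edgeR called 4 genes higher (0.0651% of 6145 tested) and 1 lower (0.0163%), or 0.0814% in either direction. The 11 cells without Isl1 at E10.5 are under the minimum of 20 cells kept for the other classes. The 4 were the globin genes Hba-a1, Hba-x, Hbb-bh1 and Hbb-y, with fold changes of 2.86 to 3.20. Without cells over 1% globin 0 genes were called by edgeR, with 289 at an unadjusted p under 0.05, and 0 without the library term, with 154. DESeq2 on all cells called 2 higher and 1 lower. The gene called lower was Nppa (-4.48 ± 0.41, adjusted p = 0.030), at 18.2 CPM in cells with Isl1 and 368 CPM in cells without it at E9.5. A single cell held 99 of its 156 UMIs there. At E10.5 it had 0 UMIs in cells with Isl1 and 3 in cells without it, and the gene was not called without cells over 1% globin.

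The outflow cells were also divided by the number of sarcomere genes with which they passed the gate. This split rests on genes of the rule, was chosen after the data had been seen, and is given with counting intervals, which leave out the spread between cells, and with no test. Cells with 5 or 6 of the 8 genes numbered 15 and 23 in the E9.5 and E10.5 libraries, and cells with 7 or 8 numbered 58 and 46, at median depths of 14319 and 13719 UMIs against 15506 and 14805. Of 5240 genes with enough UMIs, 231 had a counting interval above 0 in both libraries (4.41%) and 231 below 0 (4.41%). In the cells with 5 or 6 genes, 19 of 20 other sarcomere genes were lower, with medians of -2.86 and -1.54 against 0.10 and 0.08 over all genes. Also lower were 10 of 14 mitochondrial and energy genes and 4 of 7 smooth muscle genes, with Acta2 at 1795 v 5321 CPM and 1742 v 5992 CPM.

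Higher in the cells with 5 or 6 sarcomere genes were 11 of 17 S phase genes, with medians of 0.93 and 1.59, and 9 of 18 G2/M genes, with medians of 0.44 and 0.99. Top2a, the DNA topoisomerase of dividing cells, was at 327 v 124 CPM and 152 v 52.8 CPM, Pcna at 96.1 v 49.2 CPM and 78.5 v 34.7 CPM, and the cyclin gene Ccnd1 at 131 v 69.3 CPM and 122 v 37.5 CPM. Mki67 was at 26.9 v 39.1 CPM and 56.8 v 34.7 CPM, with intervals that include 0. Cdkn1c was lower, at 1260 v 3243 CPM and 3100 v 3656 CPM. Tcf21, a gene of pharyngeal mesoderm and the epicardium, was at 88.4 v 26.8 CPM and 111 v 11.1 CPM. It was detected in 8 of 15 and 9 of 23 cells with 5 or 6 genes, against 12 of 58 and 6 of 46. The part of cells with mesothelial transcripts in this difference was not tested. Hsd11b2 was at 242 v 57.0 CPM and 86.6 v 19.5 CPM. Of the rule genes, Isl1 was at 323 v 144 CPM and 311 v 174 CPM, and Sema3c at 158 v 134 CPM and 170 v 167 CPM. Of the outflow markers, Rspo3 was detected in 1 of 15 and 2 of 23 cells with 5 or 6 sarcomere genes and in 29 of 58 and 31 of 46 cells with 7 or 8, at 3.84 v 141 CPM and 5.41 v 278 CPM. Tdgf1 was at 11.5 v 196 CPM at E9.5 and at 0 v 15.3 CPM at E10.5, whereas Nrp2 was at 238 v 258 CPM and 430 v 510 CPM, with intervals that include 0. Mef2c was within counting error in both libraries. Wnt2 was at 76.9 v 34.7 CPM and 67.6 v 5.56 CPM, and it came from 4 and 3 of the cells with 5 or 6 genes. Of the outflow cells with the highest Scrublet scores, 0 and 2 had 5 or 6 sarcomere genes and 3 and 4 had 7 or 8, and at E10.5 mesothelial transcripts were carried by 4 cells with 5 or 6 sarcomere genes and 3 cells with 7 or 8.

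**Figure D3:**
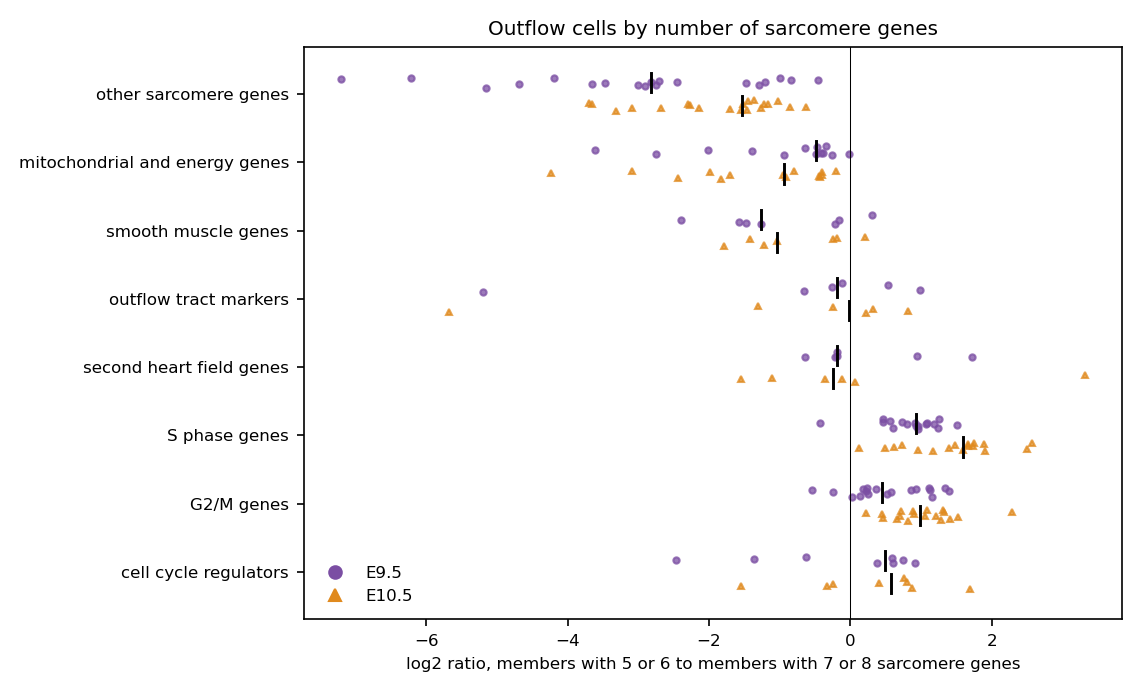
Log2 ratio of outflow cells with 5 or 6 to those with 7 or 8 sarcomere genes, for genes of 8 lists (rows) in the E9.5 (circles) and E10.5 (triangles) libraries, where each point is a gene and each black bar the median of its list. Other sarcomere genes lie left of 0 in both libraries, and most S phase and G2/M genes right of 0, while outflow tract markers lie on both sides, with Rspo3 farthest left.

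The stages were compared within outflow cells by the ratio of CPM at E10.5 to E9.5, with 1 library each and hence no test. A gene was past the fold when the ratio was at least 2-fold and its exact conditional 95% interval, which covers counting error only, excluded 1. Of 7952 genes with 20 or more UMIs, 520 were past it upwards (6.54%) and 286 downwards (3.6%), or 10.1% in all, and the median log2 ratio was 0.02. Values for the other gated cells of the same libraries follow for most of the genes named. The 10 genes with the largest rise were led by erythroid genes, with Hbb-y going from 3 to 20540 UMIs. Without cells over 1% globin it went from 3 to 2897 UMIs, and it rose in the other gated cells too (log2 ratio 10.23). At E10.5, 69 of 69 outflow cells and 219 of 219 other gated cells had 2 or more UMIs of blood markers, and globin made up a median of 0.510% of the UMIs of outflow cells. Of the 10, 8 more were erythroid genes, among them Hba-a1, Hba-x, Hbb-bh1, Hba-a2, Hbb-bs, Alas2 and Hemgn. Krt7, a keratin gene, completed them, with 0 UMIs at E9.5 and 23 at E10.5, at least 8.13-fold higher.

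Among second heart field genes, the later stage had lower levels. Of 10 with enough UMIs, 6 were past the fold downwards and 0 upwards, with a median of -1.27. Fgf8 went from 98 to 26 UMIs (-1.83, -2.51 to -1.19; others -1.38), Fgf10 from 25 to 6 (-1.98; others -1.40), Mpped2 from 427 to 165 (-1.29; others -0.83) and Nkx2-6 from 53 to 21 (-1.25; others -1.63). Foxf1 went from 29 to 3 (-3.19, -5.55 to -1.50). Tdgf1 had the widest fall among outflow markers, from 178 to 11 UMIs (-3.93, -4.96 to -3.06; others -3.27), while the other 6 measured outflow markers were not past the fold. The rule genes Isl1, Bmp4 and Sema3c had ratios of 0.26, 0.46 and 0.27. G2/M genes were lower as well, with 10 of 22 past the fold downwards and a median of -0.98. Ube2c went from 468 to 163 UMIs (-1.44; others -0.63) and Ccnb1 from 202 to 72 (-1.40; others -0.97), so the other gated cells moved the same way.

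Of 21 matrix genes, 8 were past the fold upwards at E10.5 and 1 downwards (median 0.71). Of markers of other cell types, 2 of 3 epicardial, 2 of 4 mesenchyme, 1 of 2 endothelial and 1 of 1 neural crest markers were past the fold upwards too, and the outflow cells with mesothelial transcripts numbered 0 and 7. Without those cells 6 of 20 matrix genes were past the fold upwards, 1 of 4 mesenchyme markers and 0 of 2 epicardial markers. Col1a2, which encodes a chain of type I collagen, went from 17 to 252 UMIs (3.97, 3.27 to 4.78; others 2.63), Cthrc1 from 13 to 177 (3.85, 3.04 to 4.79; others 0.88), Eln from 6 to 61 (3.43, 2.23 to 4.93; others 4.71) and Col3a1 from 15 to 116 (3.03; others 1.78). Tbx20, a T-box factor of heart muscle and the outflow tract, went from 88 to 689 UMIs (3.05, 2.73 to 3.39; others 2.27). Hand1 went from 153 to 491 (1.77, 1.501 to 2.04; others 0.31), Pln from 146 to 415 (1.59; others 0.44), Gata6 from 135 to 293 (1.20; others 0.39) and Tagln, a smooth muscle gene, from 677 to 1469 (1.20, 1.07 to 1.33; others -0.01). For Hand1, Cthrc1, Pln and Tagln the intervals of outflow and other cells did not overlap, as was so for 199 of the 806 genes past the fold (24.7%) and 557 of all 7952 (7%).

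The largest falls by ratio also took in genes outside these lists. Nppa went from 156 to 3 UMIs (-5.62, -7.91 to -4.04; others -0.35), with most of the E9.5 count in 3 cells. Mhrt, a non-coding RNA transcribed from the Myh7 locus, went from 144 to 2 UMIs (-6.09, -9.15 to -4.21; others -3.84), and Fos from 29 to 1 (-4.77, -10.13 to -2.18; others -0.95). Gm5611 and Tpm3-rs7, both annotated as pseudogenes, fell by 5.66 and 3.75 on the log2 scale, and are uncertain where reads are shared with a similar gene, which was not tested. Irx3 went from 39 to 4 UMIs (-3.20; others -1.45) and Myl2 from 1019 to 403 (-1.25, -1.42 to -1.09; others -0.08). Krt18 went from 379 to 121 (-1.56; others -0.11). Among rule genes Myh6, the atrial myosin heavy chain gene, was at 260 and 109 CPM and Myh7 at 985 and 1248 CPM. The plot of both sets of ratios places outflow cells against the other gated cells.

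**Figure D4:**
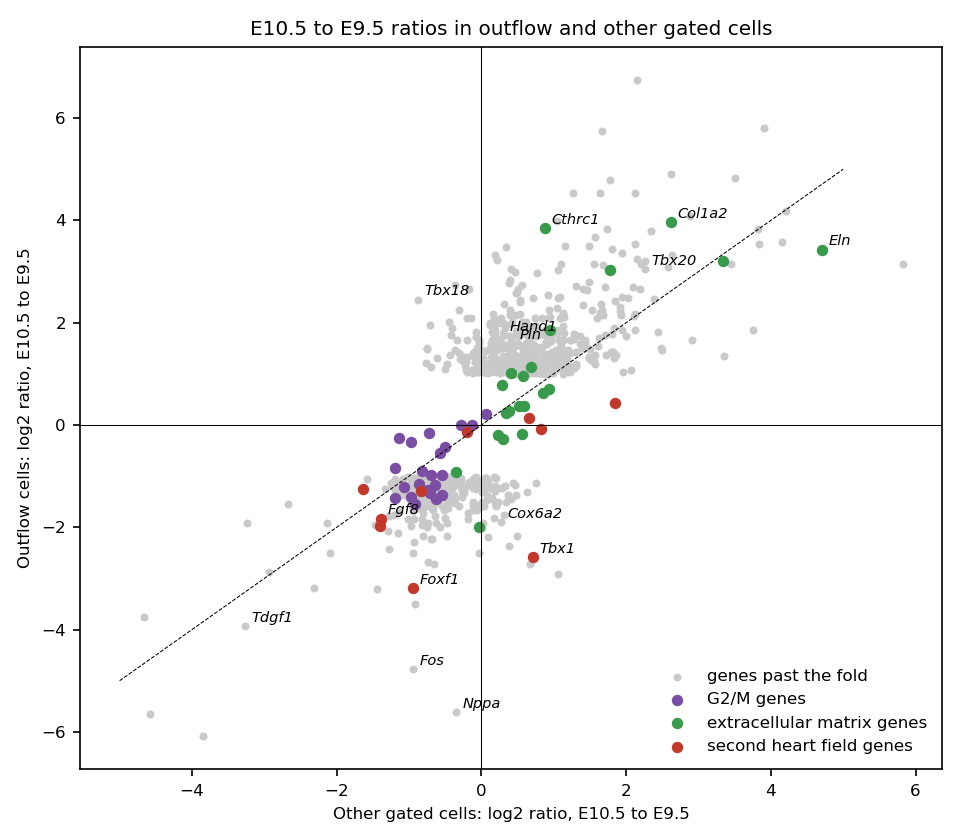
Log2 ratio of E10.5 to E9.5 in outflow cells (vertical) against that in the other gated cells (horizontal), for genes past the fold in outflow cells (grey) and for all measured genes of the G2/M (purple), extracellular matrix (green) and second heart field (red) lists; genes with 0 UMIs in a sum and ratios beyond the axes are not drawn, and the dashed line marks equal ratios. G2/M genes lie below 0 on both axes with few exceptions, matrix genes mostly above it, and Nppa falls in outflow cells with little change in the others.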

How the data were processed

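Single cells were measured with 10x Genomics 3' chemistry. Per the submitters' processing notes, the authors aligned reads to mm10 and counted UMIs with Cell Ranger 3.1.0, and they deposited whole-number UMI counts of 27998 genes per cell, not normalized. The 3' counts do not depend on transcript length, and shares and intervals cover counting error only. The rule was applied to these counts, and UMIs were summed per library and class. Classes were compared with edgeR 4.0.16 in R 4.3.3 (TMM factors, filterByExpr, quasi-likelihood test, Benjamini-Hochberg adjustment over all genes tested), without the 14 rule genes, which stayed in the totals. The library was a block, since each library gives a sum to each class from 1 pool of embryos; a second E9.5 library of this genotype that the study describes was not analysed here. Stages were compared by exact conditional intervals of the ratio of 2 Poisson counts. A gene at 0 UMIs was given a floor of 3 UMIs per library and class. Named genes were the 10 called with the largest fold change in each direction among those at 20 CPM or more in the higher class, and members of 33 lists; a few genes that were not called were added after their values had been seen. The members and lists were chosen with earlier results of these data known. Alternatives were RLE factors, library totals, no filter, DESeq2 1.42.0, no block, Scrublet (scanpy 1.11.5), thinning to 10000 UMIs and stricter limits. Those without cells rich in globin or mesothelial transcripts, and the split by sarcomere genes, were chosen after seeing the data. The fit and the counting interval were also run on simulated counts. Those for the fit had a fixed spread and the same class effect in both libraries, so they cannot test class effects that differ by stage. Coordinates are those of RefSeq on GRCm38. A few genes of the lists are not reported here by name.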

Additional observations from a re-analysis of the deposited data

Results flagged for a closer look

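The rule was written for E9.5 and E10.5, but cells of the earlier libraries of the series also met it, which was signal in libraries outside the comparisons. At E8.0, 113 of 395 gated cells did (28.6%, exact 95% interval 24.2 to 33.3), and at E8.25, 15 of 75 (20%, 11.6 to 30.8). In these cells Isl1 was at 130.4 and 145 CPM, Bmp4 at 92.7 and 132 CPM, and Sema3c rested on 4 and 5 UMIs. Tdgf1 was at 151 and 161 CPM, Nrp2 at 124 and 49.2 CPM and Fgf8 at 153 and 177 CPM.

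For 5 of 77 named or listed genes past the fold (21 of all 806 past it, or 2.61%) the ratio of E10.5 to E9.5 had opposite signs in outflow cells and in the other gated cells, with both counting intervals clear of 0, and the difference was not tested. Tbx5 had a log2 ratio of -1.58 (-3.19 to -0.20) in outflow cells and 0.20 in the others. Cox6a2, a muscle isoform of a cytochrome c oxidase subunit, had -1.90 (-2.47 to -1.35) against 0.27, Vsnl1 -1.24 against 0.14, which turned to 0.16 after thinning and rests on 12 UMIs of 3 cells at E10.5, and Tbx1, a T-box gene of pharyngeal mesoderm, -2.58 against 0.72, on 19 and 3 UMIs in outflow cells. Tbx18, a T-box gene of the sinus horns and epicardium, had 2.45 (1.17 to 4.005) against -0.88, and its 31 UMIs in outflow cells at E10.5 came from 3 cells.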

How the results depend on the processing

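The direction of the named genes held under the alternatives run, except for globin genes, Vsnl1 and 5 genes that were not called, all given below. Refits of the same sums could hardly have turned a called gene, since a call requires the same sign in both libraries. Calls held less often. Of named or listed genes against all others, 46 lost their call with DESeq2 and 59 were unchanged. After thinning, 18 lost it, 1 gained it and 78 were unchanged. Against all other gated cells, 452 genes were called in either direction. The count was 138 with DESeq2, 821 without the highest Scrublet scores, 685 with an outflow sum of 4 or more, 778 with 7 of 8 sarcomere genes and 779 without mesothelial cells. In the same order after DESeq2, genes at an unadjusted edgeR p under 0.05 numbered 1735, 1772, 1700 and 1689, against 1579 in the main fit. The degrees of freedom that edgeR adds from the spread over all genes were 409, 15.3, infinite and 44.2, against 9.02. Against Irx4 cells the count of calls was 796, with 1207 unfiltered and 434 with DESeq2, and against Nr2f cells 401, with 700 and 191. The split by Isl1 gave 5 calls, with 31 by library totals, 48 unfiltered, 3 with DESeq2, 37 after thinning and 0 without globin cells. Without the replicate block for the library the counts were 0, 60, 6 and 0 in these 4 contrasts. At 50 or more UMIs, 416 genes were past the fold between stages, against 806. The inflow list was found in 0% of E10.5 outflow cells when 7 of 8 sarcomere genes were required. The cause of these changes was not tested.

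Signs turned without the highest Scrublet scores and without globin cells, in that order, for Hba-x (-0.039 and -0.013) and Hbb-bh1 (-0.055 and -0.039) against all others. They turned for Hba-a1 (-0.39 and -0.065), Hba-x (-0.46 and -0.23) and Hbb-bh1 (-0.41 and -0.12) against Irx4 cells, and for Hbb-bh1 (-0.036 and -0.047) against Nr2f cells. In the split by Isl1 they turned for Hba-a1 (-0.11 and -0.12), Hba-x (-0.21 and -0.050), Hbb-bh1 (-0.15 and -0.016) and Hbb-y (-0.12 and -0.070). The stage ratio of Vsnl1 was 0.16 after thinning. Of genes that were not called against all others, Tgfb2 was at -0.049 unfiltered, Nkx2-5 at -0.013 with 7 of 8 sarcomere genes, and Actn2, Foxf1 and Tcf21 at -0.020, 0.10 and 0.11 after thinning. Leaving out 1 library gives the ratio in the other library alone, with no test. No called gene turned, but a call already requires the same sign in both libraries, so this could not have come out otherwise. Without E9.5 and without E10.5, the values of 12 and 9 genes moved by over 1 SD of the pair of libraries against all others, 65 and 41 against Irx4 cells, and 14 and 12 against Nr2f cells. With only 2 libraries these counts do not measure how stable a gene is. The contrast with Irx4 cells was not run after thinning, since under 20 Irx4 cells were left at E10.5. Depth limits genes with few UMIs in outflow sums.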
